A study of Homo sapiens with 14 samples.

Results

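A set of 10 transcription factors that pattern the somites and the dermomyotome was followed through a gastruloid preparation and 12 bulk libraries: PAX3, PAX1, PAX9, MEOX1, MEOX2, TCF15, UNCX, TBX18, FOXC1 and FOXC2. The set was given by name, out of 63677 gene identifiers counted in each bulk library and 17493 genes used in the nuclei. All 10 were read in the bulk libraries and 9 in the nuclei, where PAX1 was not analysed here.

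Somites are blocks of mesoderm that bud from the presomitic mesoderm on either side of the neural tube and notochord. FOXC1 and FOXC2, forkhead factors, act from the presomitic mesoderm on, while MEOX1, a homeobox factor, and TCF15, a bHLH factor also called paraxis, act as somites form and become epithelial. Each somite is then divided further. Along the body axis, TBX18 marks its rostral part and UNCX its caudal part. From back to belly, PAX3 and MEOX2 mark the dermomyotome that gives muscle and dermis, and PAX1 and PAX9 mark the sclerotome that gives the vertebrae. Outside the somite, PAX3 is a gene of the dorsal neural tube and neural crest, and PAX1 and PAX9 are genes of the pharyngeal endoderm.

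The cells were H9, an established line of human embryonic stem cells (hESC). Gastruloids were aggregates of 800 cells, made from hESC first treated in culture with 3 μM of the WNT activator CHIR-99021. Aggregation began with 3 μM of CHIR-99021 and 10 μM of a ROCK inhibitor for 18 h. The gastruloids were taken at 72 h, and 1 preparation gave both single-nucleus RNA and accessible chromatin. The bulk libraries covered undifferentiated hESC in 2 libraries. Endoderm carrying dCAS9-KRAB was read in 3 libraries without a guide RNA (DE_ctl) and 3 with a guide RNA to the endogenous retroviral promoter LTR5 (DE_CRISPRi), and foregut, by its titles without and with that interference, in 2 each (FG_ctl and FG_CRISPRi). Endoderm was made in 3 days with 100 ng/ml of Activin A, with CHIR-99021 at 5 μM on the first day and 0.5 μM on the next, and foregut took 3 further days. The labels did not say whether the hESC libraries carried dCAS9-KRAB. The study describes its RNA-seq replicates as biologically independent.

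The 12 bulk libraries held between 11583063 and 37152434 gene reads, with 8.30 to 34.7% of them from mitochondrial genes. The status labels of the 4 foregut libraries went against their titles, naming hESC for the controls and endoderm without a guide RNA for the others. TTR, a liver and foregut endoderm gene, had a mean of 1747 CPM (counts-per-million) in FG_ctl and 1742 CPM in FG_CRISPRi. It had no read in hESC or endoderm, so the titles were used. For genes, CPM are counts scaled by the gene reads of the library times its TMM normalization factor. Reads of LTR5 were scaled by the gene reads alone. SOX17, an endoderm gene, had no read in hESC and a mean of 240.6 CPM in DE_ctl. Reads of LTR5_Hs and LTR5B integrants were 23.3 to 24.8 CPM of gene reads in DE_ctl and 12.1 to 17.1 in DE_CRISPRi, and 18.0 and 21.5 in FG_ctl against 10.0 and 15.1 in FG_CRISPRi. LTR5_Hs alone was 9.10 and 8.75 CPM in FG_ctl and 4.43 and 10.9 CPM in FG_CRISPRi, so it was not lower in replicate 2. The nuclei table held 3646 nuclei with no barcode repeated. Of these, 3422 had at least 1000 UMIs (unique molecules counted) and at most 25% mitochondrial UMIs, and these held 16302 UMIs and 5205 genes at the median. Scrublet marked 70 of them (2.05%) as doublets, which were kept.

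All 9 somite factors measured were detected in the gastruloid. Each nucleus was reduced at random to 5000 UMIs, which 3197 nuclei allowed, so that shares did not follow depth. PAX3 had a UMI in 1644 of these nuclei (51.4%, exact 95% binomial interval 49.7 to 53.2). MEOX1 was found in 44.5% (42.8 to 46.3), FOXC2 in 41.7% (39.9 to 43.4), FOXC1 in 35.8% (34.2 to 37.5) and TCF15 in 24.6% (23.1 to 26.1). Of the patterning genes of the formed somite, MEOX2 was found in 15.01% (13.8 to 16.3), TBX18 in 6.91% (6.06 to 7.85) and UNCX in 6.88% (6.03 to 7.82). PAX9 had a UMI in 17 nuclei, 0.532% (0.310 to 0.850). These intervals cover counting error only and describe 1 preparation, with no replicate. Nuclear counts can include reads from introns, and the genes span from 2.9 kb (FOXC2) to 99.1 kb (PAX3), so shares of different genes were not ranked against each other.

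The 9 factors were also counted per nucleus. These counts were not compared with those that the shares alone would give, so they are no measure of co-expression. None of the 9 was seen in 548 nuclei (17.1%) and 1 in 613 (19.2%). From 2 to 4 were seen together in 597, 653 and 502 nuclei, 5 in 213, 6 in 67 and 7 in 4, and no nucleus held 8 or 9.

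Nuclei with PAX3 carried 7 of the 8 other factors more often than the 1553 nuclei without it, with exact intervals that did not overlap, as did 13.6% of the 10100 genes found in at least 5% of nuclei (10.3% were apart in the other direction). The gap was widest in ratio for MEOX2, the dermomyotome homeobox gene, found in 25.6% of PAX3 nuclei (23.5 to 27.8) and 3.80% of the others (2.90 to 4.87), a ratio of 6.74. Of all MEOX2 nuclei, 87.7% had a PAX3 UMI. TBX18 followed, with 11.1% (9.65 to 12.8) against 2.45% (1.74 to 3.34), a ratio of 4.55. UNCX was in 9.31% (7.95 to 10.8) against 4.31% (3.36 to 5.45), a ratio of 2.16.

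The factors of the forming somite were less unevenly split by ratio, though by difference in percentage points MEOX1 had the widest gap of all. MEOX1 was in 56.3% of PAX3 nuclei (53.8 to 58.7) and 32.1% of the others (29.7 to 34.5), and TCF15 in 30.4% (28.1 to 32.6) and 18.5% (16.6 to 20.5). FOXC1 was in 42.8% (40.4 to 45.3) and 28.5% (26.2 to 30.8), and FOXC2 in 46.3% (43.9 to 48.7) and 36.8% (34.4 to 39.2), the smallest ratio of the 8 at 1.26. PAX9 was in 0.791% (0.422 to 1.35) and 0.258% (0.0702 to 0.658), intervals that overlapped. Over those 10100 genes the median difference between PAX3 nuclei and the rest was 0.248 percentage points, and the differences of the 7 factors ran from 4.99 points for UNCX to 24.2 for MEOX1, which put them between rank 26 and rank 936 of those genes. PAX3 nuclei had a median of 15790.5 UMIs before thinning and the others 18339, and Scrublet marked 42 and 23 of them; the part of either in these shares was not tested.

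**Figure D1:**
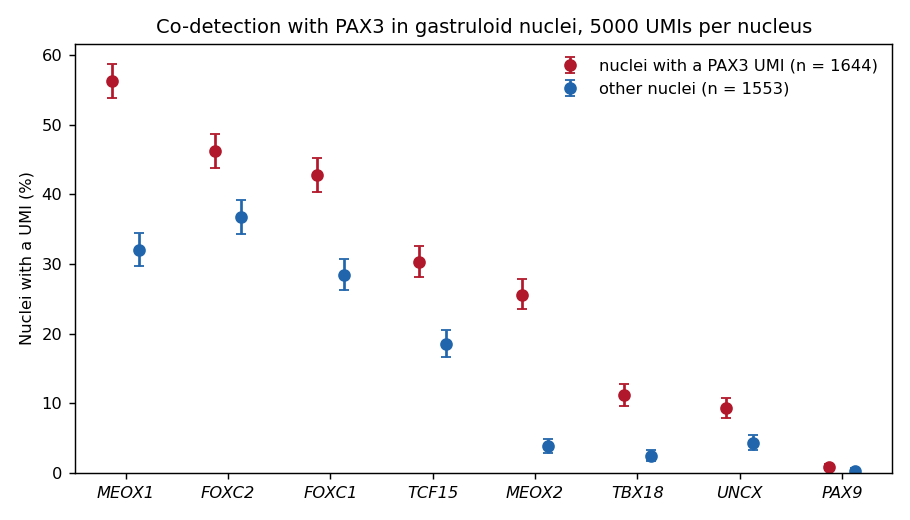
Share of gastruloid nuclei with a UMI of each factor (y axis, %) among nuclei with a PAX3 UMI (red) and the others (blue), each thinned to 5000 UMIs. Points are shares and bars exact 95% binomial intervals. The red point is above the blue with intervals apart for 7 genes, and for PAX9 both lie under 1%.

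The genes with the largest share difference in favour of PAX3 nuclei were BOC, a hedgehog co-receptor (74.5% against 30.1%), FLRT2, a guidance receptor (70.6% against 28.6%), ANK3 (75.5% against 37.1%), COL14A1, a collagen (59.4% against 21.4%), FST, the activin antagonist follistatin (79.3% against 42.9%), ENSG00000228566, RDH10, which makes the precursor of retinoic acid (57.5% against 22.6%), MGAT5, PDGFRA, a growth factor receptor of paraxial mesoderm (63.3% against 30.8%), and LHFPL6. The 5 genes lower by the most were VWA2 (7.42% against 36.0%), PTCH1, the hedgehog receptor and target (47.0% against 74.4%), SLC2A1, SLIT3 and EGFLAM. By the correlation of detection (phi, over 3197 nuclei of 1 preparation, a description that shares depth), BOC was among the 3 most alike genes for 5 factors, PAX3 (0.444), MEOX2 (0.322), TBX18 (0.195), TCF15 (0.161) and UNCX (0.113). MEOX1 was most like CNKSR3 (0.327), FOXC1 was most like LRIG3 (0.214), and FOXC2 was most like MEOX1 (0.261).

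Other genes of the lineage were read from fixed lists. Only the genes of a list that were measured in the nuclei were counted. Of 12 presomitic and segmenting genes, 8 were less frequent in PAX3 nuclei with intervals apart, 1 was more frequent and 3 overlapped. TBX6, which specifies presomitic mesoderm, was in 5.35% against 19.1%, and the clock gene HES7 in 15.9% against 37.5%. TBXT, which the axial list also holds, was in 11.7% against 28.1%. RIPPLY1, which ends the segmentation program, was in 21.0% against 15.7%. Among the clusters described below, HES7 and TBXT were in 64.9% and 66.2% of axial-like cluster 0 and 43.0% and 14.2% of presomitic-like cluster 5. TBX6 was in 9.79% and 52.7% of these clusters. The part of axial nuclei in the lower shares of HES7 and TBXT was not tested. Of 12 early somite genes 8 were more frequent and 2 less. Beside FST and PDGFRA these included the cadherin CDH11 (88.0% against 69.1%) and TWIST1 (33.3% against 17.2%), and the lower genes were EPHA4 (70.1% against 80.9%) and NOTCH1 (26.3% against 39.1%). Of the 10 dermomyotome and muscle progenitor genes measured, from a list of 15, 5 were more frequent and none less. Among the 5 were EYA1 (72.6% against 44.9%) and EYA2 (7.06% against 1.80%), DMRT2 (7.36% against 2.70%) and SIM1 (4.14% against 1.03%). Of 12 sclerotome genes 3 were more frequent, the cartilage regulators and collagen SOX5, SOX6 (49.6% against 29.0%) and COL2A1 (79.7% against 55.8%), and PTCH1 was less. Of 8 axial genes 7 were less frequent, among them CHRD (6.08% against 28.8%) and NOTO (6.14% against 23.4%). Of the 6 neural crest and dorsal neural tube genes measured, from a list of 12, 1 was more frequent, ZIC1 (18.3% against 9.14%). Less frequent were 2, MSX1 (13.2% against 18.4%) and LMX1A.

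The nuclei were clustered without the somite factors among the clustering genes, and 9 clusters resulted. Their member shares are a description, since every gene of these nuclei bears on the clusters. Cluster 0 (470 thinned nuclei, median 20967 UMIs before thinning) was axial-like, with NOTO in 72.8%, CHRD in 88.7% and SHH in 48.7% of nuclei, and served as the level of the somite factors where they should be lacking. In it PAX3 was in 9.15%, MEOX1 in 10.0%, FOXC2 in 15.1%, FOXC1 in 8.51%, TCF15 in 7.87%, UNCX in 2.13%, MEOX2 in 1.91%, TBX18 in 0.638% and PAX9 in 0.213% (0.00539 to 1.18). The PAX9 share of all nuclei lay within that last interval, which rests on 1 nucleus, so a level above that of the axial-like cluster was not detectable at this depth.

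The factors did not come up in the same clusters. In cluster 5, presomitic-like by TBX6 (52.7%), MSGN1 (19.8%) and DLL3 (94.0%), FOXC1 was in 49.9% (45.3 to 54.5) and FOXC2 in 48.2% (43.6 to 52.8) of 465 nuclei. MEOX1 was in 30.3% there and PAX3 and TCF15 each in 17.2%, while MEOX2 (1.94%), TBX18 (1.29%) and UNCX (1.29%) had intervals that overlapped those of the axial-like cluster. In cluster 3, led by PCDH8 and RIPPLY1, genes of the segmenting border, MEOX1 reached 85.1% (80.8 to 88.7) and FOXC2 73.1% (68.1 to 77.8) of 335 nuclei, their highest shares in any cluster of 50 or more nuclei. PAX3 was in 43.3% and TCF15 in 35.8% there, and MEOX2 was still in 3.28% (1.65 to 5.80). Against cluster 5, PCDH8 was in 41.8% against 14.2% and RIPPLY1 in 49.25% against 9.89%. Other segmentation genes of the same list went the other way, MESP2 (7.76% against 17.6%), RIPPLY2 (12.8% against 17.2%) and MESP1 (2.09% against 9.89%). DLL3 was in 86.6% of cluster 3.

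PAX3 and MEOX2 were highest together in 3 other clusters. Cluster 2 (577 nuclei), with SPOCK3 and COL14A1 among its leading genes, had PAX3 in 84.6% (81.4 to 87.4) at 682 CPM of UMIs, MEOX2 in 31.5% (27.8 to 35.5) and UNCX in 16.5% (13.5 to 19.8). Cluster 4 (560 nuclei), led by EDNRA, EBF1 and ZIC1, had PAX3 in 80.9% (77.4 to 84.1) at 584 CPM of UMIs, MEOX2 in 30.5% (26.7 to 34.5) and TBX18 in 16.8% (13.8 to 20.1). The caudal gene and the rostral gene were thus highest in different clusters, with UNCX in 7.50% (5.46 to 10.0) of cluster 4 and TBX18 in 10.6% (8.18 to 13.4) of cluster 2. Cluster 7 (117 nuclei), with FST and the mitotic gene KIF18A, had PAX3 in 77.8% and MEOX2 in 34.2%. Cluster 8 (248 nuclei), led by CCNB2 and CDC20, genes of mitosis, had the lowest median depth, 7738 UMIs, and TCF15 at its highest share, 43.1% (36.9 to 49.6).

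PAX3 was also frequent in a cluster where the other factors were not. Cluster 6 (391 nuclei), with SOX2 in 59.1%, FGF8 in 59.6%, CDX2 in 40.2% and NKX1-2 in 19.2% of nuclei, a mix known from neuromesodermal and caudal neural cells, had PAX3 in 47.6% (42.5 to 52.7) at 176 CPM of UMIs. There MEOX1 was in 8.44%, TCF15 in 8.95%, FOXC1 in 43 nuclei, FOXC2 in 10.7% and MEOX2 in 2.05%, all with intervals that overlapped those of the axial-like cluster. Of the neuromesodermal list, TBXT was in 23.5% of cluster 6, against 66.2% of cluster 0, and WNT8A in 4.35%. MSX1 was in 44.8% of cluster 6 and PAX7 in 6.9%, while ZIC1 was in 10.5% and LMX1A in 1.535%. The part of dorsal neural cells in its PAX3 share was not tested. Cluster 1 held 34 nuclei and was left out of the cluster comparisons.

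**Figure D2:**
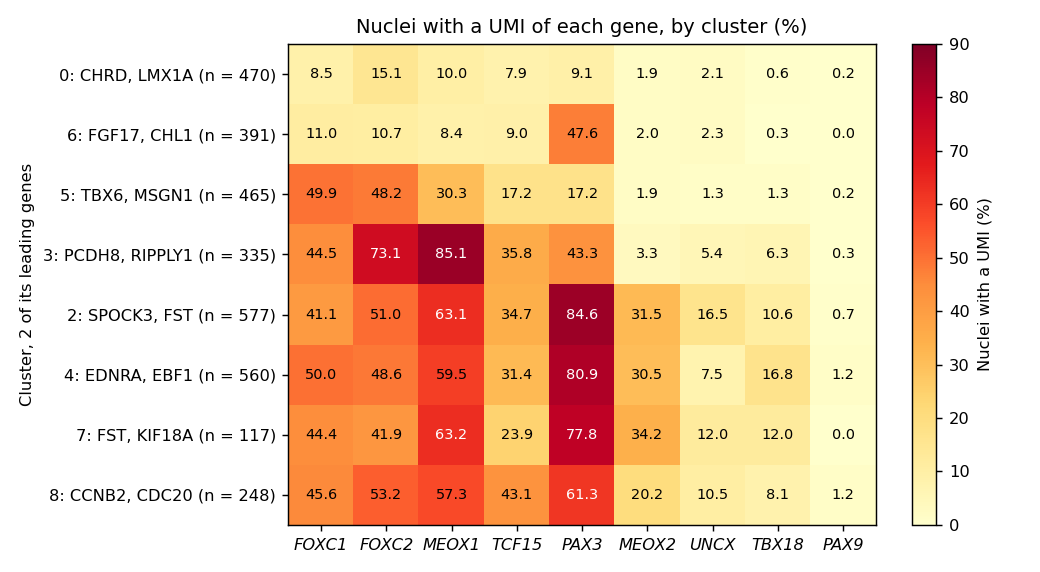
Share of nuclei with a UMI (colour and printed value, %) of 9 factors (columns) in 8 clusters (rows, with 2 of each cluster's leading genes and its number of nuclei), thinned to 5000 UMIs. FOXC1 and FOXC2 are already near 50% in the TBX6 cluster, MEOX1 is highest in the PCDH8 cluster, and MEOX2 passes 20% only in clusters 2, 4, 7 and 8, where PAX3 is in 61.3% or more.

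The PAX3 nuclei were also compared with the others within each of the 7 clusters with at least 40 nuclei on each side, where fewer nuclei make the intervals wide. MEOX2 was more frequent in PAX3 nuclei with intervals apart in clusters 2 and 8, at 34.6% (30.4 to 39.0) against 14.6% (8.01 to 23.7) in the first and 30.3% (23.1 to 38.2) against 4.17% (1.15 to 10.3) in the second. In clusters 0 and 5 its shares were 9.30% against 1.17% and 6.25% against 1.04%, with overlapping intervals. MEOX1 stood apart in 2 clusters, of which cluster 5 had 45.0% (33.8 to 56.5) against 27.3% (22.9 to 32.0). TCF15 did in 1, cluster 5, with 32.5% (22.4 to 43.9) against 14.0% (10.7 to 17.9), and FOXC1 in 1, cluster 2. For UNCX, TBX18, FOXC2 and PAX9 a difference was not detectable in any of the 7 at this depth, UNCX being in 9.30% against 1.41% of cluster 0 and in 2.07% against 7.89% of cluster 3.

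Among the 36 pairs of the 9 factors, 34 were found together in more nuclei than the product of their shares gives. For the 8 factors found in at least 5% of nuclei this was 27 of 28 pairs (96.4%), and for all pairs of genes found that often it was 50.9%. The 2 exceptions were PAX9 with FOXC2, at 7 nuclei against 7.08, and UNCX with TBX18, the caudal and the rostral gene. UNCX was in 220 nuclei and TBX18 in 221, with 8 nuclei holding both against a product of 15.2. UNCX was in 3.62% (1.58 to 7.01) of TBX18 nuclei and 7.12% (6.23 to 8.11) of the others, intervals that overlapped. Among PAX3 nuclei alone, which hold most of both genes, UNCX was in 3.83% (1.55 to 7.72) of TBX18 nuclei and 9.99% (8.50 to 11.7) of the others, intervals apart, and in cluster 2 in 4.92% (1.03 to 13.7) and 17.8% (14.6 to 21.4). In cluster 4 the values were 4.26% (1.17 to 10.5) and 8.16% (5.84 to 11.02), which overlapped. Without thinning, 64 PAX3 nuclei held both genes against a product of 86.5, and UNCX was in 14.7% (11.5 to 18.4) of TBX18 nuclei and 21.2% (19.3 to 23.1) of the others. Over all 3422 nuclei the unthinned count was 66 against 72.4, with overlapping intervals.

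**Figure D3:**
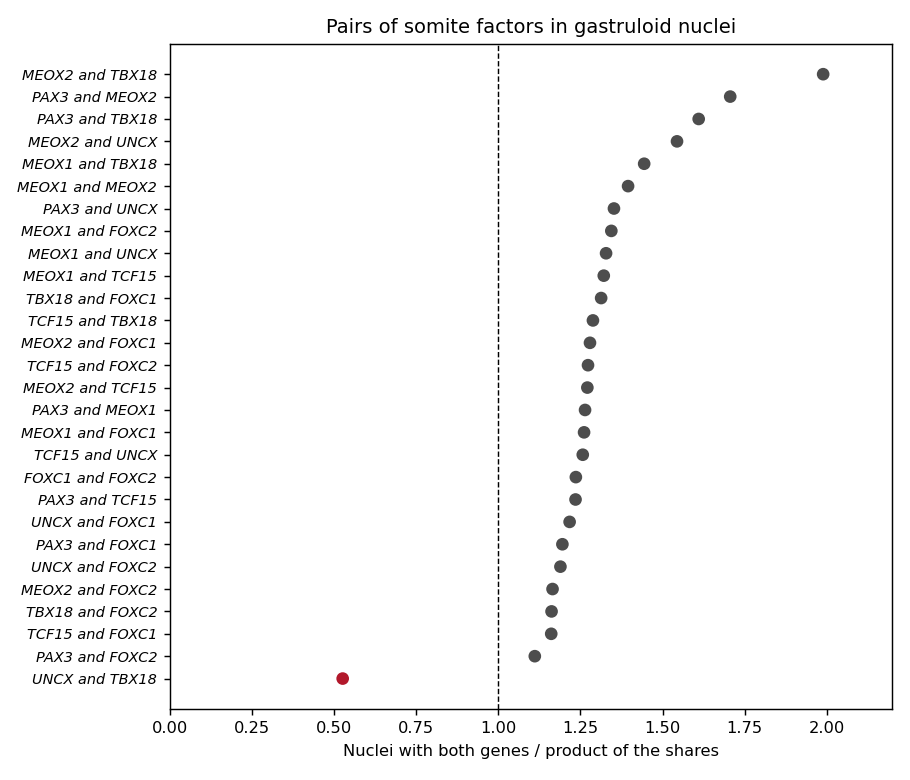
Number of nuclei with a UMI of both genes divided by the product of their shares (x axis; 1, dashed, is the product) for each pair of 8 factors, PAX9 left out, over 3197 nuclei. UNCX and TBX18 (red) are at 0.526 and all other pairs shown lie between 1.11 and 1.99.

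Accessible chromatin lay over the start site of 9 of the 10 genes and on either side of it for PAX9. The gastruloid table listed 205374 peaks on GRCh38 with a median width of 878 bp. A peak lay within 1 kb of the RefSeq start site of 10 of 10 factors and of 77.9% of 19117 protein-coding genes placed. Within 250 bp the count was 9 of 10, PAX9 being the exception, against 72.2% of genes. The nearest PAX9 peaks spanned chr14:36655760-36656573 and chr14:36658490-36659359, on either side of the first start site at 36657568. PAX1, not analysed in the nuclei, had a peak of 856 bp over its start (chr20:21705561-21706416). The PAX3 start lay in a peak of 834 bp (chr2:222298568-222299401). Within 100 kb of the start there were 43 peaks for UNCX, 40 for MEOX1, 36 for PAX3, 35 for FOXC2, 34 for TCF15 and 31 for FOXC1, against a median of 17 over all placed genes, and 27 for PAX9, 21 for PAX1 and 16 each for MEOX2 and TBX18. The peaks were called on the whole preparation, so they do not tell in which nuclei a site was open.

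The promoter sequences of 4 factors that split the somite nuclei are shown with their peaks in mind, from RefSeq (GRCh38.p14), 250 bases before to 50 after the start, on the strand of the gene. RefSeq promoters matched PAX3, PAX9, MEOX2, UNCX, TBX18 and FOXC1, and PAX1, MEOX1, TCF15 and FOXC2 were not matched. Capitals mark CCAAT or its complement ATTGG, found in 34.6% of all 35116 promoters of this length, and TATAAA or its complement TTTATA, found in 11.5%. All 300 bases lay within a peak in each of the 4.
PAX3, chr2:222298949-222299248, minus strand: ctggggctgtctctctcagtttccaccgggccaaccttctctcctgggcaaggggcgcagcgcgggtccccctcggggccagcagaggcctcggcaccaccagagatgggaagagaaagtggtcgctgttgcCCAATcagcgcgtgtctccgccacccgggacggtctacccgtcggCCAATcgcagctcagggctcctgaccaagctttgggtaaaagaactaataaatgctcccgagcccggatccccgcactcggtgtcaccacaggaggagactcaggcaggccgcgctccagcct
MEOX2, chr7:15686634-15686933, minus strand: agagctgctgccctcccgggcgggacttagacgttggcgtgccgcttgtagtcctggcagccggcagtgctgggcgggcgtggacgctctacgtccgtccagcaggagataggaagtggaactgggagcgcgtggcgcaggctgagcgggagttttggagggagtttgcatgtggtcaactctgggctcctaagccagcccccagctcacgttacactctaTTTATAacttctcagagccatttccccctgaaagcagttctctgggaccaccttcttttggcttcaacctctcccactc
TBX18, chr6:84764549-84764848, minus strand: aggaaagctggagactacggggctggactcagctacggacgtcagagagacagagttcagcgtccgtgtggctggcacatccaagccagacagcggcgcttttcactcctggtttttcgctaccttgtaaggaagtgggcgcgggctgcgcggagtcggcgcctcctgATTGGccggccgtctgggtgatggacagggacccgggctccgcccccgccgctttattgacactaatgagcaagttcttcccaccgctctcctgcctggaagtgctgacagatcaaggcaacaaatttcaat
UNCX, chr7:1232622-1232921, plus strand: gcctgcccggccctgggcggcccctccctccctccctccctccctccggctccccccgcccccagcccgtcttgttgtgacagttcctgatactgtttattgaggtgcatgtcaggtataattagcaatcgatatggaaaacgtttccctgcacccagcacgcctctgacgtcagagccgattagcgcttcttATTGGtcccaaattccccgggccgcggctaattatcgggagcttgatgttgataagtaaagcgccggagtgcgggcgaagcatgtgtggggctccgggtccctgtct
PAX3 held 2 CCAAT boxes, TBX18 and UNCX 1 each, and MEOX2 none but a TATAAA. The T-box letters AGGTGT, read on both strands and found in 11.4% of all promoters, were in none of these windows, and the E-box letters CANNTG, found in 68.7%, were in MEOX2 and UNCX once each. PAX9 has 2 RefSeq starts, and its first promoter, shown because it was the one without a peak, had 0 of 300 bases in a peak, while all 300 bases of the second, chr14:36661610-36661909, lay in one.
PAX9, chr14:36657318-36657617, plus strand: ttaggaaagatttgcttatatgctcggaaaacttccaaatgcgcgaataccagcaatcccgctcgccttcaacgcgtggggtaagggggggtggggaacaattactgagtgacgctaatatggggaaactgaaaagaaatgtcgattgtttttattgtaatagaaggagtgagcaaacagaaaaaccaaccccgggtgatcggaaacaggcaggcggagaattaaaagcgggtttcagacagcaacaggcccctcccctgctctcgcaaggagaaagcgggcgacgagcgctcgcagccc

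The bulk levels of the factors depended on the group, and fewer cells of a type and less RNA per cell cannot be told apart there. In hESC, 6 of the 10 had no read in either library, and MEOX2 and FOXC2 had 2 reads each in 1 library. TCF15 had 1.51 and 1.15 CPM there and FOXC1 had 8.09 and 8.88 CPM. Per kilobase of exon, FOXC1 was the most abundant of the 10 in DE_ctl, at a mean of 9.81 CPM per kb, against 1.48 for TCF15, 0.725 for UNCX, 0.316 for PAX9, 0.164 for FOXC2 and 0.0424 for PAX3. In FG_CRISPRi, TCF15 had 10.6 CPM per kb and FOXC1 4.26.

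Endoderm was compared with hESC to see which factors came up under the endoderm protocol, which began with Activin A and CHIR-99021. FOXC1 had 56.3, 29.2 and 31.6 CPM in DE_ctl, each above both hESC libraries, a log2 fold change of 2.24 ± 0.29 (SE, edgeR adjusted p = 1.85e-05, n = 3 and 2). UNCX had 1.84, 1.01 and 1.69 CPM (37, 22 and 27 reads) and no read in hESC, at least 11.7-fold higher against a floor of 3 counts per library (edgeR adjusted p = 2.92e-05). Folds given as at least a value, here and below, set the mean of the group with reads against that floor and leave out its spread. PAX9 had 3.54, 0.414 and 1.44 CPM, no read in hESC and a bound of at least 13.9-fold (adjusted p = 0.000385). PAX3 had 1, 10 and 8 reads, or 0.0498, 0.460 and 0.500 CPM, at least 2.60-fold higher by its mean (edgeR adjusted p = 0.0243). DE_ctl replicate 1 itself lay below the floor. That PAX3 call was lost in a fit of all 12 libraries (adjusted p = 0.171), with a replicate block (adjusted p = 0.0769), and without either hESC library, DE_ctl replicate 2 or DE_ctl replicate 3 (adjusted p from 0.0622 to 0.129). TCF15, at 1.30, 1.80 and 1.38 CPM, did not pass (0.20 ± 0.38, adjusted p = 0.714), nor did FOXC2 with 11, 0 and 14 reads (3.30 ± 1.42, adjusted p = 0.0792), which passed without DE_ctl replicate 2 (adjusted p = 0.00641). PAX1 and MEOX1 had no read in either group and TBX18 had 2, 2 and 0 reads in DE_ctl.

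Of the 10 factors 6 reached 3 reads in 1 library and were tested, and 4 were called, each of them higher, where 26.0% of all 20818 genes tested were called and 14.2% called higher. A factor without reads in hESC entered this test only through its endoderm reads. Of 12 presomitic and segmenting genes 7 rose and 1 fell, with a median log2 fold change of 3.78 against 0.04 for all genes, among them RIPPLY1 (9.35 ± 0.80, adjusted p = 4.86e-07), TBXT (8.09 ± 0.40, adjusted p = 9.37e-10) and DLL3 (4.64 ± 0.38, adjusted p = 1.51e-07), while the Notch modifier LFNG fell by 2.25 ± 0.30 (adjusted p = 2.23e-05). Of 12 early somite genes 6 rose and 1 fell, led by CER1, a secreted inhibitor also known from anterior endoderm (14.29 ± 0.39), and PDGFRA (7.20 ± 0.54). Of 10 dermomyotome genes tested 2 rose, among them EYA2 (3.74 ± 0.32), and 2 fell, MET and SIX4. Of 10 sclerotome genes tested 2 rose and 3 fell, SOX9 by 2.54 ± 0.31 among them. Rises were not particular to the somite lineage. Of 9 intermediate and lateral mesoderm genes tested 4 rose and 1 fell (median 4.09). Neural crest and dorsal neural tube genes rose in 5 of 10 tested and fell in 3 (median 1.73). Neural genes rose in 1 of 9 and fell in 6 (median -2.73). All these adjusted p were under 0.05 in edgeR.

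From endoderm to foregut, in the controls, 4 factors were called, PAX1 and MEOX1 higher and UNCX and FOXC1 lower. PAX1, of the pharyngeal endoderm and sclerotome, had no read in DE_ctl and 225 and 402 reads in FG_ctl, or 7.31 and 10.3 CPM, at least 47.0-fold higher (edgeR adjusted p = 0.000112, n = 2 and 3). MEOX1 went from no read to 1.98 and 0.795 CPM, at least 7.40-fold higher (adjusted p = 0.00644). UNCX went the other way, with no read in FG_ctl, at least 15.6-fold lower (adjusted p = 0.00199). FOXC1 fell to 8.12 and 10.0 CPM, a log2 change of -2.11 ± 0.35 (adjusted p = 0.00182), with no overlap between the groups. TCF15, at 2.66 and 1.87 CPM, was above all 3 endoderm libraries but did not pass (0.60 ± 0.48, adjusted p = 0.343). PAX9 (1.27 and 0.616 CPM), PAX3 (12 and 0 reads) and FOXC2 (11 and 39 reads) overlapped with DE_ctl.

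Of the 10 factors 8 were tested, and PAX1, MEOX1, UNCX and FOXC1 were the 4 called, where 29.0% of 21466 genes were. PAX1, MEOX1 and UNCX had no read in 1 of the groups and entered the test only through the other, so the share is no measure for them. Of the 12 presomitic genes 5 fell and 1 rose, with TBXT at -7.68 ± 0.68 and MESP1 at -4.45 ± 0.95. The dermomyotome list had 4 of 11 tested higher and 2 lower, with SIM1 (11.68 ± 0.75) and MET (3.87 ± 0.33) higher and PAX7 lower (-8.18 ± 0.63). The pharyngeal endoderm list, in which PAX1 and PAX9 were not counted, had 2 of 7 tested higher, among them HOXA3 (10.40 ± 0.97), and 2 lower, among them TBX1 (-4.86 ± 0.91). All these passed an adjusted p of 0.05 in edgeR. DE_ctl was shared with the comparison against hESC, so the opposite directions of UNCX and FOXC1 in the 2 comparisons are not independent.

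**Figure D4:**
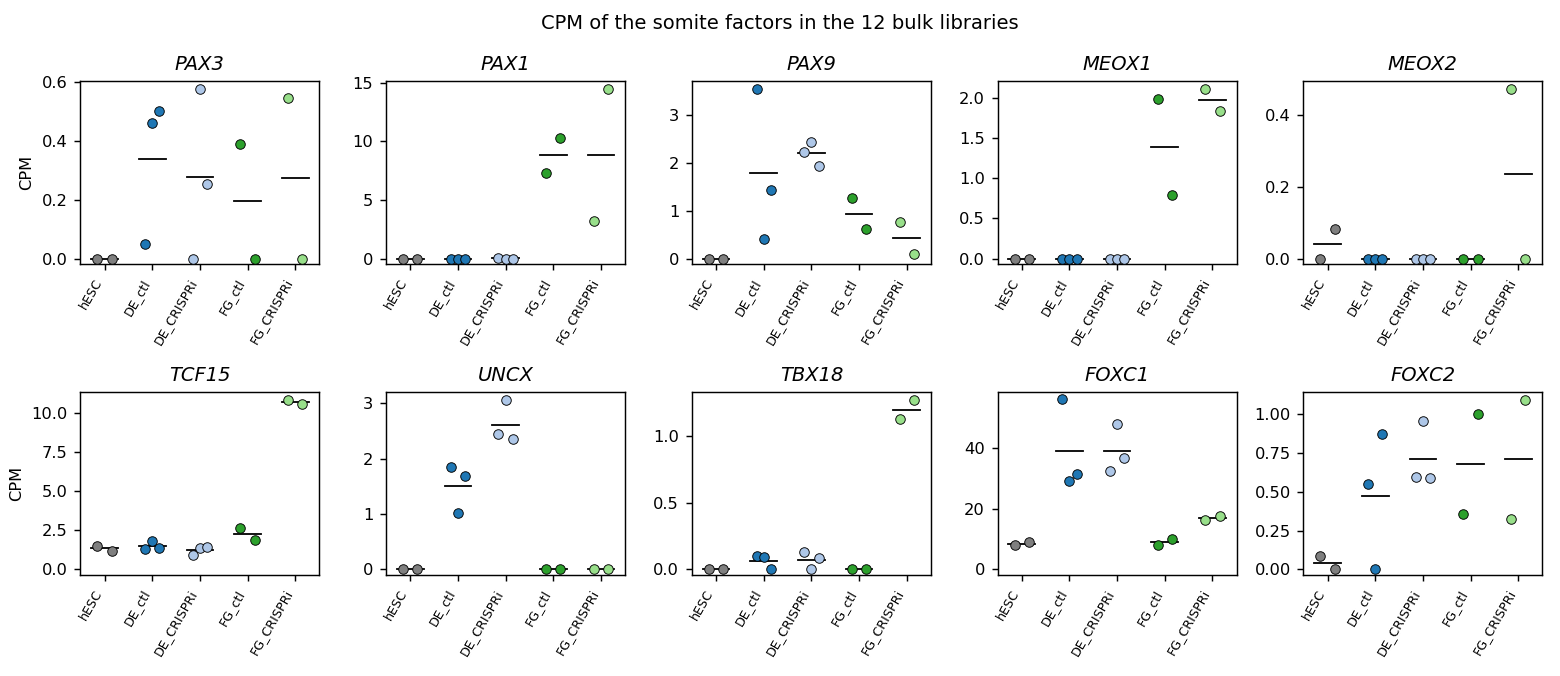
CPM (y axis, linear, own scale per gene) of the 10 factors in the 12 bulk libraries by group, 1 point per library and a line at the group mean (n = 2 for hESC, FG_ctl and FG_CRISPRi, 3 for DE_ctl and DE_CRISPRi). PAX1 and MEOX1 have reads in foregut, UNCX in endoderm, and TCF15 and TBX18 are highest in both FG_CRISPRi libraries.

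Interference at LTR5 was compared with its control to see whether any factor depended on these elements. None of the 10 lay within 100 kb of one. The closest LTR5 integrants lay 201.5 kb from TCF15 and 284.5 kb from MEOX1 and over 500 kb from the other 8 on GRCh37, where 14.4% of 20163 protein-coding genes had one within 100 kb and the median distance was 727.5 kb. In endoderm, none of the 6 factors tested was called, with 0.0343% of 20407 genes called (7 genes), by limma voom and DESeq2 as well. One had an unadjusted p under 0.05. UNCX had 2.44, 3.06 and 2.35 CPM in DE_CRISPRi, each above the highest DE_ctl library, a log2 fold change of 0.82 ± 0.34 (edgeR adjusted p = 0.892). FOXC1 had 32.4, 48.0 and 36.8 CPM in DE_CRISPRi, and its mean was 39.1 CPM in both groups. TCF15, at 0.923, 1.34 and 1.43 CPM, differed by -0.26 ± 0.37 (adjusted p = 0.9995).

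In foregut, none of the 9 factors tested was called (0.165% of 20044 genes, 33 genes), and 2 had an unadjusted p under 0.05. TCF15 had 10.8 and 10.6 CPM (299 and 242 reads) in FG_CRISPRi against 2.66 and 1.87 CPM (82 and 73 reads) in FG_ctl, a log2 fold change of 2.23 ± 0.68 (edgeR adjusted p = 0.308, n = 2 and 2). All other bulk libraries had between 0.923 and 1.80 CPM of TCF15. The adjusted p was 0.0381 without FG_CRISPRi replicate 1, 0.0524 in a fit of all 12 libraries, and between 0.108 and 1 under every other alternative run. TBX18 had 31 and 29 reads in FG_CRISPRi (1.12 and 1.27 CPM) and none in FG_ctl, at least 12.3-fold higher, with no more than 2 reads in any hESC or endoderm library (edgeR adjusted p = 0.9996). FOXC1 had 16.4 and 17.6 CPM against 8.12 and 10.0 CPM (0.90 ± 0.50, edgeR adjusted p = 0.9996), again without overlap.

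The other factors differed less than their replicates in foregut. PAX1 had 3.23 and 14.4 CPM in FG_CRISPRi, a mean of 8.82 ± 7.91 CPM (SD, n = 2) against 8.81 ± 2.13 in FG_ctl, and MEOX1 had 58 and 42 reads against 61 and 31. MEOX2 had 13 reads in FG_CRISPRi replicate 1 and none in the other or in FG_ctl, and PAX3 had reads in replicate 1 of each group only, 15 and 12. PAX9 had 21 and 2 reads against 39 and 24, FOXC2 9 and 25 against 11 and 39, and UNCX none in either group. AFP, a hepatic and yolk sac gene, had a mean of 95.9 ± 129 CPM (SD, n = 2) in FG_ctl and 0.0181 CPM in FG_CRISPRi, so the 2 control libraries were not alike, and the part of this in the TCF15 and TBX18 values was not tested. Among 10 dermomyotome genes tested in foregut 1 was called, SIM1, lower by -2.28 ± 0.57 (adjusted p = 0.0404).

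The difference of the LTR5 interference effect between foregut and endoderm was tested as an interaction over 10 factors. None was called (0.194% of 22708 genes, 44 genes), with an unadjusted p under 0.05 for 2. These were TCF15, whose foregut effect exceeded its endoderm effect by 2.47 ± 0.67 on the log2 scale (edgeR adjusted p = 0.263), and TBX18 (edgeR adjusted p = 0.463). The fitted value of TBX18 rests on FG_ctl without a read and endoderm libraries with no more than 2 reads each. MEOX1 and MEOX2 had no read in either endoderm group and UNCX none in either foregut group. Their standard errors were 1148, 18040 and 988.6, so the test could not have called them. PAX1 had a single endoderm read, in DE_CRISPRi.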

How the data were processed

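The deposited bulk files held raw read counts per gene (and per repeat integrant) that the authors made on hg19, and the submitters' processing notes name HISAT2 and Cell Ranger without versions. The deposited nuclei table held UMI counts per gene and nucleus, and the peak list gave intervals on GRCh38. Raw counts were tested with edgeR 4.0.16 (TMM, quasi-likelihood, 2-sided) in R 4.3.3 over genes with at least 3 reads in 1 library, using only the libraries compared. Calls needed a fold change above 2 and p below 0.05 after Benjamini-Hochberg adjustment. CPM of genes were computed over all gene reads of a library times its TMM factor, which was 0.866 and 1.10 in FG_CRISPRi. CPM of LTR5 reads and of UMIs were computed without that factor.

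Nuclei with at least 1000 UMIs and at most 25% mitochondrial UMIs were thinned to 5000 UMIs, which left out 225 of 3422, and clustered with scanpy 1.11.5 (Leiden, resolution 0.5). Intervals are exact Clopper-Pearson at 95% and no test was made between nuclei, which came from 1 preparation. Both programs were tested on simulated data. Alternatives changed the normalization, test, filter, threshold, libraries, replicate block, thinning, doublets, clustering and peak window, and a crossed pairing in foregut was chosen after seeing the data.

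The members and gene lists were chosen with earlier results of these data known. Named genes were the members, up to 4 called genes per list by size, and the genes most different between PAX3 nuclei and the rest or most alike a member. Other genes, such as LFNG, RIPPLY1 and TTR, were named after their values were seen. PAX1 was not analysed here in the nuclei, and some genes of the lists are not reported here by name.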

Additional observations from a re-analysis of the deposited data

How the results depend on the processing

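The number of factors called stayed at 4 or 3 for endoderm against hESC and at 4 for foregut against endoderm with 1 library left out, and at 0 for the interaction and for LTR5 CRISPRi in endoderm. In foregut CRISPRi it was 2 with the unadjusted p (TCF15 and TBX18) and 0 to 1 with 1 library left out. Over all genes, the 7 calls of CRISPRi in endoderm became 1 with voom, 1 with filterByExpr, 1 in a fit of all 12 libraries, 47 with DESeq2, 186 with no filter, 550 with the unadjusted p and 1 to 9 with 1 library left out. The 33 calls in foregut became 11 with voom, 1 with filterByExpr, 209 in a fit of all 12 libraries, 504 with the unadjusted p and 16 to 527 with 1 library left out, 527 without FG_CRISPRi replicate 1. With the replicate block they became 19, and 74 with the crossed pairing, chosen after seeing the data because same-numbered foregut libraries deviated oppositely (correlation -0.182). Same-numbered endoderm libraries did not deviate together (-0.0336 to 0.0169), and those of FG_ctl and DE_ctl did by 0.157 and 0.129 over only 2 pairs, so the numbers were not taken as pairs. The cause of these changes was not tested. No log2 fold change reported for a factor reversed. Among 299 alternative values of factor folds that are not given here, 30 turned sign and 0 changed the call. The fold changes of list genes were not rerun under the alternatives. With PAX3 itself counted, 2 factors (PAX3 and UNCX) had their highest share in the cluster highest for PAX3, 6 without thinning and 4 at resolution 0.3. Of the 10 factors 2 had a peak wider than the median within 1 kb of the start site, against 42.7% of genes. Shares rise with depth (PAX3 was in 35.8% at the shallowest thinning and 61.3% at the deepest), and foregut rests on 2 libraries a group.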

Other observations

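Lists of neighbouring lineages were compared between PAX3 nuclei and the rest. Measured in the nuclei were 6 of 9 neural, 5 of 12 intermediate and lateral mesoderm, 4 of 8 endoderm and 4 of 10 pharyngeal endoderm genes. Of 6 neural genes 2 were less frequent with intervals apart, NKX6-1 (2.98% against 7.41%) and HES5 (1.28% against 2.83%), and none more. Of 5 intermediate and lateral mesoderm genes 1 was less frequent, LHX1 (1.34% against 4.44%). Of 4 endoderm genes 3 were less frequent, with FOXA2 in 5.41% against 19.0%. FOXA2 and FOXA1 were also counted among the axial genes above, and FOXA2 was in 57.0% of axial-like cluster 0. Of 4 pharyngeal endoderm genes 3 were more frequent, among them EYA1, which the dermomyotome list also holds, and TBX1 (5.23% against 2.96%), and HOXA3 was less (19.6% against 28.0%).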
